A study of Mus musculus with 10 samples.

Results

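The forkhead genes encode transcription factors that share a winged-helix DNA-binding domain, and their chromatin was followed here in the mouse pre-osteoblast line MC3T3-E1, with and without the inflammatory cytokine TNFa and the bone morphogen BMP4. Members were all called ATAC-seq windows whose nearest gene in the deposited peak lists carried a forkhead symbol (Fox, 1 lower-case letter and a number). These were 319 of the 97788 windows in the 4 lists: 85 of 26230 in untreated cells, 79 of 23288 with TNFa, 80 of 24525 with BMP4 and 75 of 23745 with both. Windows of different lists that overlapped by at least 50% were linked into regions, which gave 116 forkhead regions of 35534 in all, at 28 of the 44 forkhead symbols in the RefSeq gene table.

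ATAC-seq uses a transposase that inserts sequencing adapters into open chromatin, so the number of reads (tags) in a window rises with its accessibility. Each of the 4 groups held 2 libraries, and 2 libraries of sonicated DNA were the background. All cells were kept in medium with 2.5% serum: the untreated group received neither factor, the second group TNFa at 10 ng/ml, the third BMP4 at 10 ng/ml for 3 h, and the fourth both. The treatment protocol gives TNFa a 30 min lead before BMP4, whereas each TNFa sample is labelled with 3 h of TNFa, which leaves its duration uncertain. The titles of the TNFa libraries alone carry the word p65, for a reason not given, and whether they were made like the others is not known. No label tells if the 2 libraries of a group had separate cultures as their source. The p-values thus reflect library-to-library spread alone, and that may be technical.

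Forkhead proteins are grouped into subfamilies by letter. FOXO factors (Foxo1, Foxo3, Foxo4 and Foxo6) sit downstream of insulin and PI3K signalling: the kinase Akt keeps them out of the nucleus, and they drive stress-resistance, cell-cycle-arrest and apoptosis genes. Foxm1 acts in proliferating cells on genes of mitosis. Foxc1 and Foxc2 are needed for mesenchyme and skeletal development, and Foxp1 and Foxp4 are mostly repressors.

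Values are given as CPM (counts per 1e6), the tags in a window as a share of the tags in all tested windows after library scaling, in the order replicate 1 then replicate 2. A window is named by its nearest gene and the distance in bp of its centre from that gene's start site, with a minus sign for upstream. Nearest gene is a label of position, and no expression was measured. All sequenced cells contribute to a window, so fewer cells with an open site and less opening per cell cannot be told apart.

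Among 300-bp promoters in the RefSeq table (GRCm38.p6, 250 bases before to 50 after the start site), 9 forkhead promoters had a called window over them. The following 5 are shown because the values described further on rest on them: Foxo1 and Foxo3 as the main FOXO genes, Foxc1 as the Foxc promoter with the highest level, Foxp4 as the tested forkhead promoter with the highest mean level, and Foxk2 as a promoter called in no TNFa list. They lie at chr3:52268087-52268386 (plus strand, Foxo1), chr10:42276646-42276945 (minus, Foxo3), chr13:31806396-31806695 (plus, Foxc1), chr17:47924583-47924882 (minus, Foxp4) and chr11:121259737-121260036 (plus, Foxk2). Capitals mark the part inside the window called in the untreated list, and each sequence runs 5′ to 3′ on the gene's strand.
Foxo1: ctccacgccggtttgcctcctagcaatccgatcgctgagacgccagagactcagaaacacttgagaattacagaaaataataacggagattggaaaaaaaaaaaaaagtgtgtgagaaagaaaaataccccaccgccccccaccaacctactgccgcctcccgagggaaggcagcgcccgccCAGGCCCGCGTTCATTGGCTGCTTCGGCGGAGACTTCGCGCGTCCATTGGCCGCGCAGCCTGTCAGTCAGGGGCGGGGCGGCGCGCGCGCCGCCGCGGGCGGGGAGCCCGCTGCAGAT
Foxo3: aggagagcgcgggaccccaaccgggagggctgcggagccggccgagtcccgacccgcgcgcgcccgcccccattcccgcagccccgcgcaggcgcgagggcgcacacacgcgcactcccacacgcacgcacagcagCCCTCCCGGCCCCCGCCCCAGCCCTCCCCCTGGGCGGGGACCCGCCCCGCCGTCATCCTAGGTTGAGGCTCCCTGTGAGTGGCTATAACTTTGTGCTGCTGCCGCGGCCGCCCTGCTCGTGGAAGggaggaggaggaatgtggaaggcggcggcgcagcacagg
Foxc1: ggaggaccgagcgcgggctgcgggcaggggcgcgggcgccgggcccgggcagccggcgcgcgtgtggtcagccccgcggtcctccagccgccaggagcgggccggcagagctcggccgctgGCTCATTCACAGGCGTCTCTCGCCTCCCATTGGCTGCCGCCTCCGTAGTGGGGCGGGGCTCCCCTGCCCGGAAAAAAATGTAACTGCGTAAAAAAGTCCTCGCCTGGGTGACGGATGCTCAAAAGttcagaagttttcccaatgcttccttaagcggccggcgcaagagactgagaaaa
Foxp4: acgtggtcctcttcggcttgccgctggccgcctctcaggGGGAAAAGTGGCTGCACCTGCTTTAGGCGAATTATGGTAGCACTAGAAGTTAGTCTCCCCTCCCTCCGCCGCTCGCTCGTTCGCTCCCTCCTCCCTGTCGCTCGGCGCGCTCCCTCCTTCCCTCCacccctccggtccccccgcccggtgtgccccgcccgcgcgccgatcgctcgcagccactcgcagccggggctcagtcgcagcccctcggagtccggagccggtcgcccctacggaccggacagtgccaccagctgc
Foxk2: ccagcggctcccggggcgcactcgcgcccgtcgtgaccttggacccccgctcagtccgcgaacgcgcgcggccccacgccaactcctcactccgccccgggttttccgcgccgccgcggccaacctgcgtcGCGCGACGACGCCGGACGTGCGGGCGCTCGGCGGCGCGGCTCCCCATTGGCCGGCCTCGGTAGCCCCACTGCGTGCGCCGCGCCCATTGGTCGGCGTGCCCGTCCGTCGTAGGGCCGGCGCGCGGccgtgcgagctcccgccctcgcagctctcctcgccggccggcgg

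GC content was 61.3% in the Foxo1 promoter, 75% in Foxo3, 67.3% in Foxc1, 70.3% in Foxp4 and 79.3% in Foxk2. The median over the 9 forkhead promoters with a window was 70.3%, against 59.7% over the 24 forkhead promoters without one and 52.7% over all 32851 promoters in the table. None of the 9 held any of 4 motifs searched on both strands: the forkhead motif GTAAACA or TGTTTAC (1 of 33 forkhead promoters, Foxa1, and 3.65% of all), the AP-1 motif TGACTCA or TGAGTCA (2 of 33, Foxe3 and Foxn3, and 5.20% of all), an NF-kB motif GGAAAGTCC or GGACTTTCC (0 of 33 and 0.344%) and the SMAD motif GTCTAGAC (0 of 33 and 0.213%). These counts describe letters in these stretches only.

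Forkhead windows were spread unevenly over the family. Foxp1, a repressor best known in lymphocytes and heart, had 25 regions, and Foxl1, a factor of gut mesenchyme, had 13. Foxn2 had 8, Foxc1 had 6, and Foxk1 and Foxn3 had 5 each. Foxa2, Foxe1, Foxi2, Foxj2, Foxo3, Foxo6 and Foxs1 had 4 each. Foxc2, Foxo1 and Foxp4 had 3 each, and Foxd3, Foxf1, Foxj1, Foxl2 and Foxo4 had 2 each. The remaining 7 genes (Foxb2, Foxd1, Foxd2, Foxj3, Foxk2, Foxm1 and Foxn1) had 1. No window was assigned to the other 16 symbols, among them Foxa1, Foxh1 and Foxp3.

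**Figure D1:**
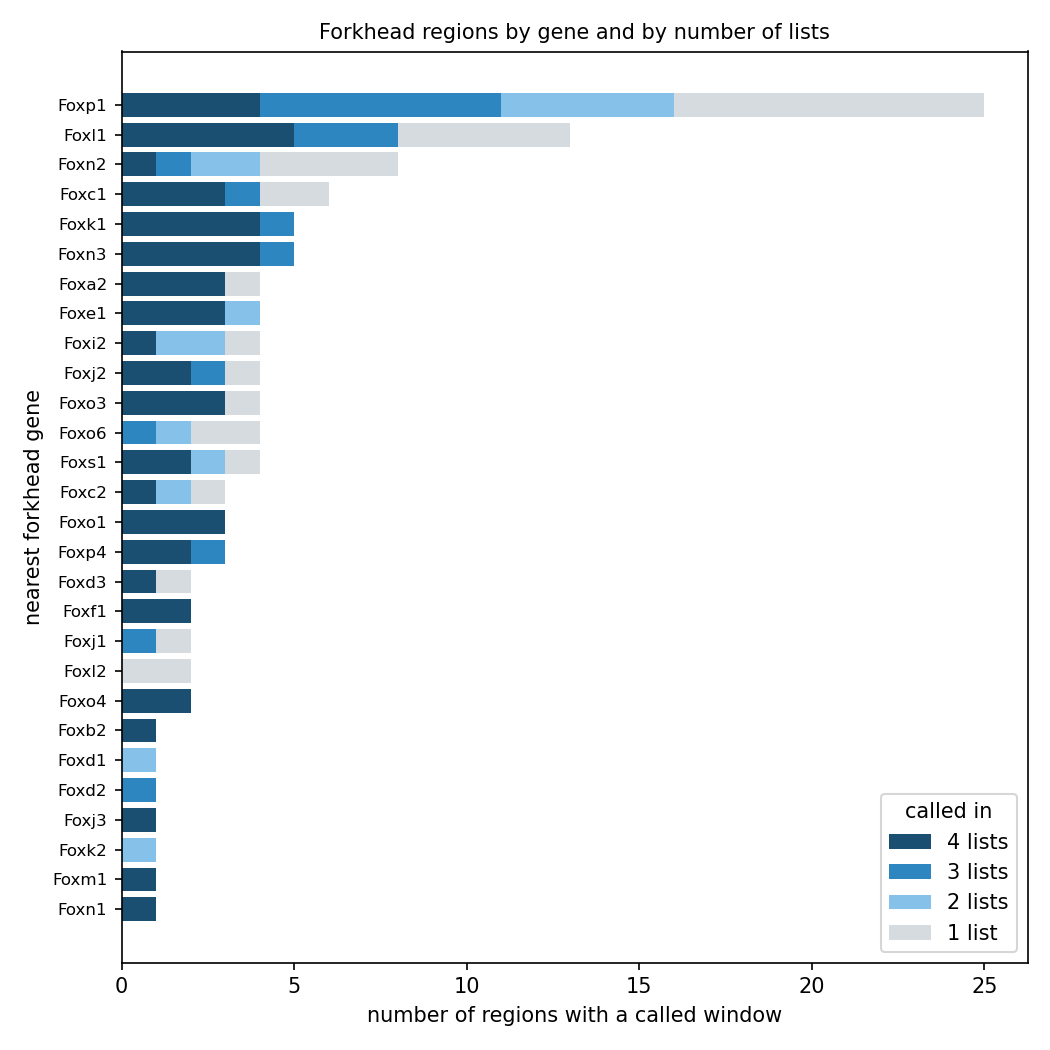
Number of regions with a called window (horizontal axis) for each forkhead gene (vertical axis), with bars split by how many of the 4 lists called the region. Foxp1 has 25 regions, of which 4 were called in all 4 lists.

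Most forkhead regions lay away from promoters. Of the 116, 58 were annotated as intergenic, 32 as intron and 22 as promoter, with 2 in exons, 1 in a 3′ UTR and 1 at a transcription end site. In the 4 lists 18.8% to 24% of forkhead windows were promoter windows, against 31.8% to 35.0% of all windows. The median distance to the start site was 29701 to 35732 bp for forkhead windows and 5264 to 7569 bp for all windows. At 22 genes a region was called in all 4 lists, and at Foxd1, Foxd2, Foxj1, Foxk2, Foxl2 and Foxo6 none was.

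Regions called in all 4 lists numbered 50, or 43.1% of the forkhead regions, beside 42.5% of all regions. In 47 of the 50 each list had exactly 1 window and all 4 windows overlapped, and all 47 passed the filter on low values. These 47, at 21 genes, are the forkhead windows tested below, out of 14416 tested in all. Total library depth was 16486612.5 to 30051723.0 tags, of which 591988 to 1574458 tags fell in the tested windows. Depth split with TNFa: libraries with it had 16486612.5 to 21757662.0 total tags, and those without it 26048595.0 to 30051723.0. What part depth had in the TNFa differences below was not tested. In all 8 libraries, each of the 47 windows held more tags, relative to total tags, than either background library. Each list gives the fold change of its windows over these same background libraries, so the selection of windows largely fixed this outcome. Osteoblast markers were covered (13 of 14 genes had a window, Alpl none), as were 8 of 10 chondrocyte, 3 of 7 adipocyte, 3 of 10 muscle or endothelium and 2 of 9 haematopoietic marker genes. Ptprc, Myod1 and Fabp4 had none.

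Libraries differed in ways the groups did not explain. On the first principal component of all tested windows (63.3% of the variance) replicate 2 of the untreated and BMP4 groups lay at 94.3 and 95.9, and the other 6 libraries between -74.0 and 41.9. Those 2 libraries correlated with each other at 0.953, and with their own group's replicate 1 at 0.590 and 0.393. Replicate number gives a different split. In 15 of 47 forkhead windows (31.9%, against 23.6% of all windows) replicate 2 was below replicate 1 in every group, and in 10 (21.3%, against 22.5%) it was above. Of 2 cases chosen after their values were seen, the first was Foxn3 +98123, in the second intron of a repressor gene tied to the DNA-damage checkpoint. Its CPM was 32.7 and 2.20 without treatment, 54.9 and 15.5 with TNFa, 44.6 and 3.18 under BMP4, and 50.7 and 31.7 under the combination. Foxo1 -69803 was similar, with 62.8 and 12.5, 89.2 and 32.3, 101 and 6.99, and 86.0 and 60.0 in the same order. In these windows replicates of one group stood further apart than the group means, and how much of this is technical was not tested.

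**Figure D2:**
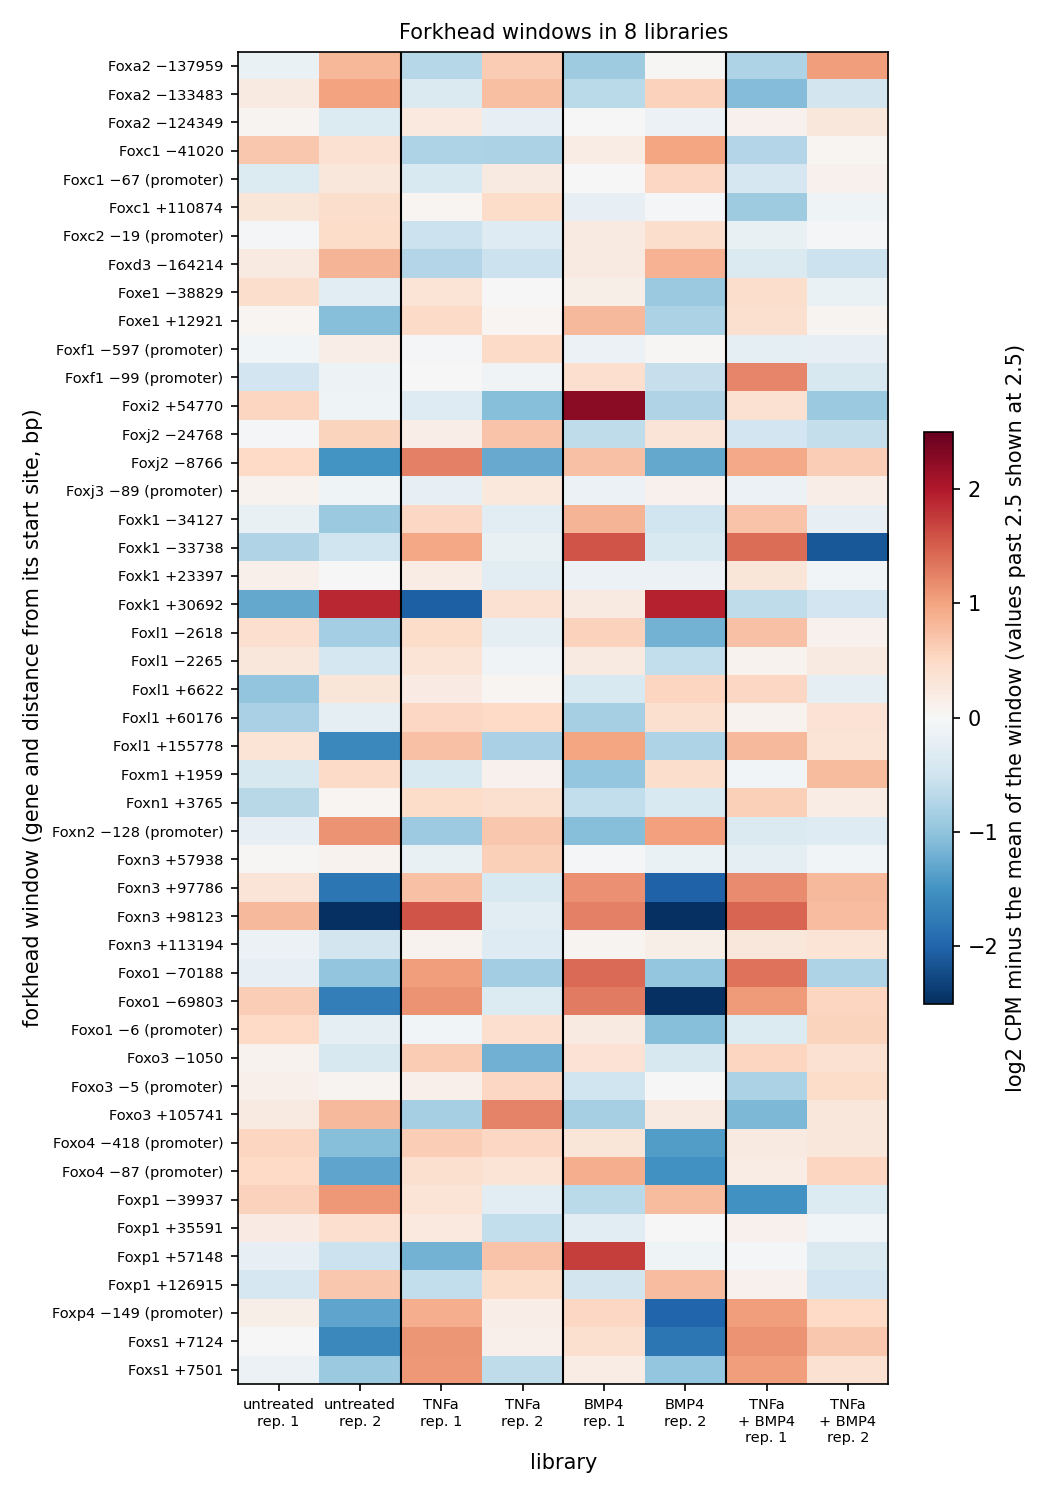
Each row is 1 of the 47 forkhead windows tested, each column a library, and colour is log2 CPM minus the mean of that window over the 8 libraries. Rows such as Foxn3 +98123 and Foxo1 -69803 are lower in replicate 2 of each group, while Foxd3 -164214 and Foxc1 -41020 follow TNFa.

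The median CPM over the 47 windows was similar in all libraries: 38.5 and 35.9 without treatment, 41.2 and 44.2 under TNFa, 41.2 and 34.3 under BMP4, and 45.1 and 36.2 under the combination. Over all tested windows it was 42.9 to 45.1. The forkhead windows together held 0.224% to 0.344% of the tags in tested windows, lowest in replicate 2 of BMP4 and of untreated cells.

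The promoters of Foxo1, Foxo3 and Foxo4 were called in all 4 lists. The Foxo3 promoter (-5, chr10:42276685-42276809) had 68.7 and 66.0 CPM without treatment, 68.6 and 90.8 with TNFa, 44.6 and 62.9 under BMP4, and 36.7 and 87.2 under the combination. The BMP4 values lay below both untreated values, and the other groups overlapped them. A neighbouring window at Foxo3 -1050 (chr10:42277730-42277854) was stronger in every library but TNFa replicate 2, with 211 and 150, 309 and 86.0, 254 and 150, and 289 and 258. The Foxo1 promoter (-6, chr3:52268269-52268393) was weaker, with 30.2 and 18.3, 20.6 and 28.7, 25.2 and 10.2, and 16.9 and 31.7. Groups overlapped at Foxo1 in every pairing. Foxo4, an X-linked member, had 2 promoter windows. At -87 it had 38.5 and 11, 36.0 and 34.6, 51.5 and 9.54, and 31.0 and 39.6. The low values there were replicate 2 of untreated cells and of BMP4. At -418 it lay between 6.36 and 25.7, with the same 2 libraries lowest. The Foxo6 promoter, of a FOXO gene best known in brain, was called at shifted places in 3 lists and not with both factors. It held 18.4 and 69.7 CPM in untreated cells (-616), and in the window 100 bp upstream 12 and 52.6 with TNFa and 8.01 and 84.6 with BMP4.

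Among the other promoters the levels ran from Foxp4 down to Foxc2. At Foxp4 -149 (chr17:47924719-47924843) the CPM was 89.6 and 32.3, 151 and 90.8, 116 and 20.3, and 166 and 114. Foxn2 -128 had 50.3 and 126, 30.9 and 92.0, 27.5 and 118, and 45.1 and 46.4, with replicate 2 above replicate 1 in every group. Foxc1 -67 had 49.4 and 75.5, 48.1 and 72.9, 62.9 and 89.0, and 46.5 and 66.8, and Foxj3 -89 was the steadiest, between 53.2 and 72.9 in all 8 libraries. Foxf1, a gene of lung and gut mesenchyme, had 2 windows annotated to promoters: -597, at the start of the divergent non-coding gene Fendrr, lay between 26.8 and 44.2, and -99 between 17.2 and 59.2. Foxc2 -19 was lowest of the group with 15.4 to 30.8. Neighbours in this order overlapped across the libraries, except that Foxj3 -89 stood above Foxf1 -597 in all 8. The single Foxm1 window, in the first intron (+1959), had 13.4 and 24.9, 13.7 and 19.1, 9.16 and 24.2, and 16.9 and 30.6, and was 1 of the weaker windows in all groups.

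The first comparison asked how TNFa alone differed from no treatment. A window upstream of Foxc1 and another upstream of Foxd3 had about 2-fold fewer tags with TNFa, while windows at Foxs1, Foxp4, Foxn1 and Foxl1 had more. At Foxc1 -41020 (chr13:31765564-31765688, intergenic) the CPM was 56.1 and 45.5 without treatment and 20.6 and 20.3 with TNFa. Both TNFa libraries lay below both untreated ones, and the log2 fold change was -1.23 ± 0.53 (SE, limma, adjusted p = 1, unadjusted p = 0.0477). Foxd3 is a neural crest and stem cell factor, and its only tested window, Foxd3 -164214 (chr4:99492023-99492147, intergenic), had 103 and 160 CPM without treatment and 53.2 and 60.9 with TNFa. The libraries did not overlap, and the log2 fold change was -1.15 ± 0.53 (limma, adjusted p = 1).

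Of the windows with more tags under TNFa, those of Foxs1 and Foxp4 had wide replicate spread. Foxs1 +7124 (chr2:152926022-152926146, intergenic, near a gene expressed in pericytes and sensory neurons) had 66.2 and 22 CPM without treatment and 144 and 72.9 with TNFa, a log2 fold change of 1.37 ± 0.83 (limma, adjusted p = 1). At the Foxp4 promoter it was 1.09 ± 0.86 (0.38 without untreated replicate 2), and at Foxl1 +60176 1.00 ± 0.58, from 36.9 and 55.0 to 92.7 and 92.0. Foxn1 +3765 lies in the first intron of the thymic epithelium factor Foxn1 and had 18.4 and 30.8 CPM without treatment and 41.2 and 39.4 with TNFa. In these 4 windows both TNFa libraries lay above both untreated ones. Of lower windows, Foxp1 -39937 had 30.2 and 42.5 against 25.7 and 16.7 (log2 -0.73 ± 0.63), and Foxc2 -19 had 21.8 and 30.8 against 15.4 and 17.9 (-0.58 ± 0.47).

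**Figure D3:**
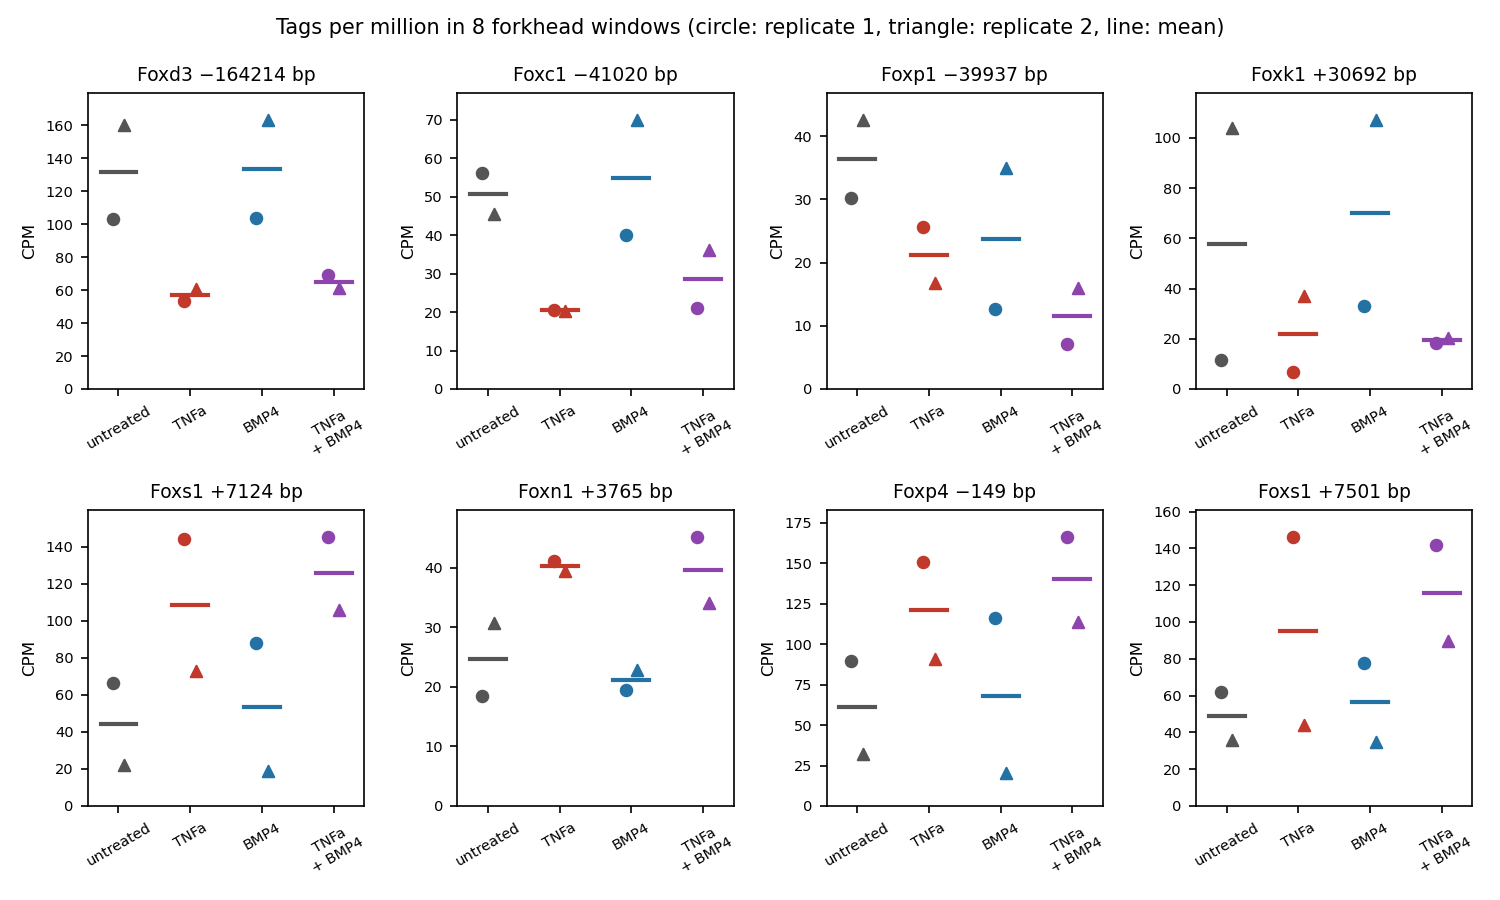
CPM (vertical axis, from 0) in each library for 8 forkhead windows, by group, with circles for replicate 1, triangles for replicate 2 and a line for the mean. At Foxc1 -41020 and Foxd3 -164214 all 4 libraries with TNFa lie below all 4 without it, and at Foxn1 +3765 they lie above.

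None of the 47 passed limma's test (Benjamini-Hochberg over 14416 windows, adjusted p under 0.05), and neither did any other window (0.00%). At an unadjusted p under 0.05 there were 151 windows in all (1.05%), 1 of them forkhead, and voom weights gave 140 and 0 past the threshold. Libraries of the 2 groups did not overlap in 12 forkhead windows, 7 higher with TNFa (14.9%, against 8.88% of all windows) and 5 lower (10.6%, against 10.5%). The log2 fold change was above 0 in 30 of 47 (50% of all windows), with a median of 0.17 beside -0.00 over all windows. Under scaling by total tags the median of all windows moved to -0.15 and only 39.2% were above 0, with 27 forkhead windows above 0 and a forkhead median of 0.03. Such a shift of about -0.15 also held in the other comparisons of TNFa libraries with libraries without it, while the direction of each window named above stayed as given.

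TNFa in the presence of BMP4, the comparison of both factors with BMP4 alone, was again led by windows of Foxd3, Foxc1, Foxn1 and Foxs1. It shares no library with the first comparison. But the first had untreated replicate 2, and this one BMP4 replicate 2, in the group without TNFa. These are the libraries that stood apart. With 1 library left out at a time, Foxd3 -164214 ranged here from -1.3 to -0.65 and Foxc1 -41020 from -1.27 to -0.48 (log2). Foxn1 +3765 ranged from 0.65 to 1.03 and Foxs1 +7124 from 0.5 to 2.59. What further part the libraries that stood apart had in the differences was not tested. At Foxd3 -164214 BMP4 libraries had 104 and 163 CPM and libraries with both 69.1 and 61.2, a log2 fold change of -0.98 ± 0.53 (limma, adjusted p = 0.989). At Foxc1 -41020 they had 40.1 and 69.9 against 21.1 and 36.2 (-0.89 ± 0.53). Groups overlapped at neither window. At Foxn1 +3765 the values were 19.5 and 22.9 against 45.1 and 34.0 (0.83 ± 0.49), and at Foxs1 +7124 88.1 and 19.1 against 145 and 106 (1.54 ± 0.83). Both lay higher without overlap. At the Foxp4 promoter replicate 1 with BMP4 (116) was above replicate 2 with both (114), so the groups just overlapped (1.45 ± 0.86, and 0.27 without BMP4 replicate 2). Foxk1 +30692, in the first intron of a muscle progenitor and metabolic factor, had 33.2 and 107 against 18.3 and 20.4 (-1.54 ± 1.07). Foxs1 +7501 had 77.8 and 35.0 against 142 and 89.5 (1.08 ± 0.73), and Foxp1 -39937 had 12.6 and 35.0 against 7.05 and 15.9 (-0.87 ± 0.63), where the groups overlapped. Foxc2 -19, named here after its values were seen, had 26.3 and 30.5 against 19.7 and 21.5 (-0.42 ± 0.47).

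Again 0 of 47 forkhead windows passed, with 0 of 14416 in all (0.00%). limma gave 230 windows (1.60%) at an unadjusted p under 0.05, none of them forkhead, and voom gave 238 and 0 past the threshold. Groups did not overlap in 7 forkhead windows that were higher (14.9%, against 11.7% of all) and 5 that were lower (10.6%, against 13.5%). The fold change was above 0 in 30 of 47 (49.9% of all windows), and in 25 under total-tag scaling.

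Because 4 windows set all 4 libraries with TNFa apart, the mean of the 2 TNFa groups was also set against the mean of the 2 others, a comparison added after these values were seen. Both libraries that stood apart on the first principal component were in the groups without TNFa. Every library with TNFa was also shallower, by total tags, than every library without it. All 4 TNFa libraries lay below all 4 others at Foxc1 -41020, Foxd3 -164214 and Foxc2 -19 (6.38% of 47, against 2.62% of all windows) and above them at Foxn1 +3765 (2.13%, against 1.82%). The log2 difference was -1.06 ± 0.37 at Foxc1, -1.06 ± 0.37 at Foxd3, -0.50 ± 0.33 at Foxc2 and 0.77 ± 0.35 at Foxn1 (limma, adjusted p = 0.853 for each). At Foxs1 +7124 it was 1.45 ± 0.59 and at the Foxp4 promoter 1.27 ± 0.61. At both of these BMP4 replicate 1 lay within the range of the TNFa libraries, and in each group replicate 2 was the lower. Foxs1 +7501 (0.91 ± 0.51), Foxp1 -39937 (-0.80 ± 0.45) and Foxk1 +30692 (-1.29 ± 0.76) followed, with overlap. Foxc2 -19 was named after its values were seen. Its separation was narrow, with 21.5 CPM in replicate 2 of both factors and 21.8 in untreated replicate 1. Without a replicate block no window of any gene passed, with 628 at an unadjusted p under 0.05 (4.36%) and 3 of them forkhead (Foxc1 -41020, Foxd3 -164214 and Foxs1 +7124), and voom gave 624 and 0 past the threshold. With the replicate number as a block this comparison called 119 windows, 0 of them forkhead, and the lowest forkhead adjusted p was 0.0674 (limma). The labels do not say what the numbers mark.

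BMP4 alone against no treatment gave the smallest forkhead median of the 5 pairwise comparisons, at 0.03. Foxp1 +57148, in an intron, had 10.1 and 8.07 CPM without treatment and 38.9 and 10.8 with BMP4, a log2 fold change of 1.06 ± 0.72 (limma, adjusted p = 1). A single library, BMP4 replicate 1, carried that difference. The same held at Foxk1 -33738, with 41.1 and 49.1 against 207 and 53.4 (1.20 ± 1.09), which passed only in a fit with the replicate block and without the 2 libraries that stood apart (2.22, limma, adjusted p = 0.00707, 1 residual degree of freedom). Its neighbour Foxk1 -34127 had 66.2 and 39.6 against 135 and 53.4 (0.71 ± 0.67), and Foxl1 +155778 had 162 and 41.8 against 252 and 74.4 (0.72 ± 0.86), both with overlap. Without untreated replicate 2 the Foxl1 difference was -0.23, and without BMP4 replicate 1 it was -0.15. Among lower windows, Foxo3 +105741 (intergenic) had 85.5 and 128 against 41.2 and 85.2 (-0.79 ± 0.81), the only one of the next 4 whose groups did not overlap. Foxp1 -39937 had 30.2 and 42.5 against 12.6 and 35.0 (-0.70 ± 0.63), Foxa2 -133483 had 38.5 and 66.0 against 20.6 and 49.0 (-0.63 ± 0.64), and Foxa2 -137959 had 15.1 and 30.1 against 9.16 and 17.2 (-0.68 ± 0.73). Without BMP4 replicate 1 the Foxp1 -39937 difference was -0.03 and that of Foxa2 -133483 was -0.04. Foxc1 +110874, within an intron of Gmds, was chosen after its values were seen and had 22.6 and 24.9 against 16.0 and 17.8 (-0.45 ± 0.49).

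No window passed among the 47 or the 14416 (0.00%), and 28 (0.194%) were at an unadjusted p under 0.05 by limma, none of them forkhead, with 33 by voom and 0 past the threshold. Groups did not overlap in 3 forkhead windows that were higher (6.38%, against 8.32% of all) and 6 that were lower (12.8%, against 8.68%). The fold change was above 0 in 25 of 47 (50.7% of all), with a median of 0.03 beside 0.01. Averaged over both BMP4 groups against both others, again a comparison added later, no forkhead window had an unadjusted p under 0.05 and 158 of all windows (1.10%) did. No forkhead window was higher without overlap (0.777% of all were), and 1 was lower (0.853% of all), Foxc1 +110874, at -0.56 ± 0.35. The other lower windows with the smallest p were Foxp1 -39937 (-0.77 ± 0.45), Foxa2 -133483 (-0.77 ± 0.45) and Foxj2 -24768 (-0.65 ± 0.39). Higher ones were Foxn3 +113194 (0.41 ± 0.35), Foxl1 +155778 (0.66 ± 0.61), Foxp1 +57148 (0.52 ± 0.51) and Foxo3 -1050 (0.43 ± 0.46, and -0.04 without TNFa replicate 2).

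BMP4 on top of TNFa, read from the combination against TNFa alone, gave 26 of 47 windows above 0 (51.3% of all), with a median of 0.14 beside 0.01. Foxj2 -24768 had 46.3 and 66.9 CPM with TNFa and 29.6 and 27.2 with both, without overlap (log2 -0.93 ± 0.55, limma, adjusted p = 1). Foxp1 -39937 had 25.7 and 16.7 against 7.05 and 15.9 (-0.84 ± 0.63), and Foxa2 -133483, far upstream of an endoderm pioneer factor, 25.7 and 55.0 against 15.5 and 23.8 (-0.90 ± 0.64). Foxc1 +110874 had 18.9 and 25.1 against 9.87 and 17.0 (-0.66 ± 0.49). None of these 4 overlapped between the groups. Foxn3 +97786 was higher at 25.7 and 11.9 against 35.2 and 27.2 (0.75 ± 0.93), as was Foxn3 +113194 at 68.6 and 51.4 against 78.9 and 81.5 (0.42 ± 0.49), while at Foxo3 -1050, with 309 and 86.0 against 289 and 258 (0.73 ± 0.65), the values overlapped and TNFa replicate 2 was the low one. Without that library the Foxo3 difference was -0.19, and that of Foxj2 -8766 (529 and 93.2 against 429 and 340, 0.77 ± 1.00) was -0.49. Groups did not overlap in 5 higher forkhead windows (10.6%, against 8.38%) and 7 lower ones (14.9%, against 8.93%). Of all windows 0 passed (0.00%), with 37 (0.257%) at an unadjusted p under 0.05 and 34 with voom, none of the 37 forkhead.

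Both factors against no treatment gave the widest range. Foxp1 -39937 (chr6:99475220-99475344, in the first intron of a longer transcript) had 30.2 and 42.5 CPM without treatment and 7.05 and 15.9 with both. The single-factor groups had 25.7 and 16.7 with TNFa and 12.6 and 35.0 with BMP4. The log2 fold change was -1.57 ± 0.63 (limma, adjusted p = 0.897, unadjusted p = 0.0354). Foxa2 -133483 had 38.5 and 66.0 against 15.5 and 23.8 (-1.31 ± 0.64), and Foxd3 -164214 103 and 160 against 69.1 and 61.2 (-0.96 ± 0.53). Foxs1 +7124 had 66.2 and 22 against 145 and 106 (1.64 ± 0.83), Foxs1 +7501 62.0 and 35.9 against 142 and 89.5 (1.22 ± 0.73), and the Foxp4 promoter 89.6 and 32.3 against 166 and 114 (1.32 ± 0.86). Foxn3 +97786 had 19.3 and 4.40 against 35.2 and 27.2 (1.5 ± 0.93), and Foxc1 +110874 had 22.6 and 24.9 against 9.87 and 17.0 (-0.78 ± 0.49). None of these 8 overlapped between the 2 groups. The 2 Foxs1 windows lie within 500 bp of each other and are not independent.

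In this comparison 12 forkhead windows were higher without overlap (25.5%, against 16.8% of all) and 11 were lower (23.4%, against 16.5%). None of 47 passed, nor any of 14416 (0.00%), with 357 (2.48%) at an unadjusted p under 0.05, 1 of them forkhead, and 360 with voom, 0 past the threshold. The median was 0.23 beside -0.01, with 28 of 47 above 0 (49.7% of all) and 25 under total-tag scaling (43.0% of all). This comparison and those of TNFa alone and BMP4 alone share the untreated libraries, so their values are not independent.

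**Figure D4:**
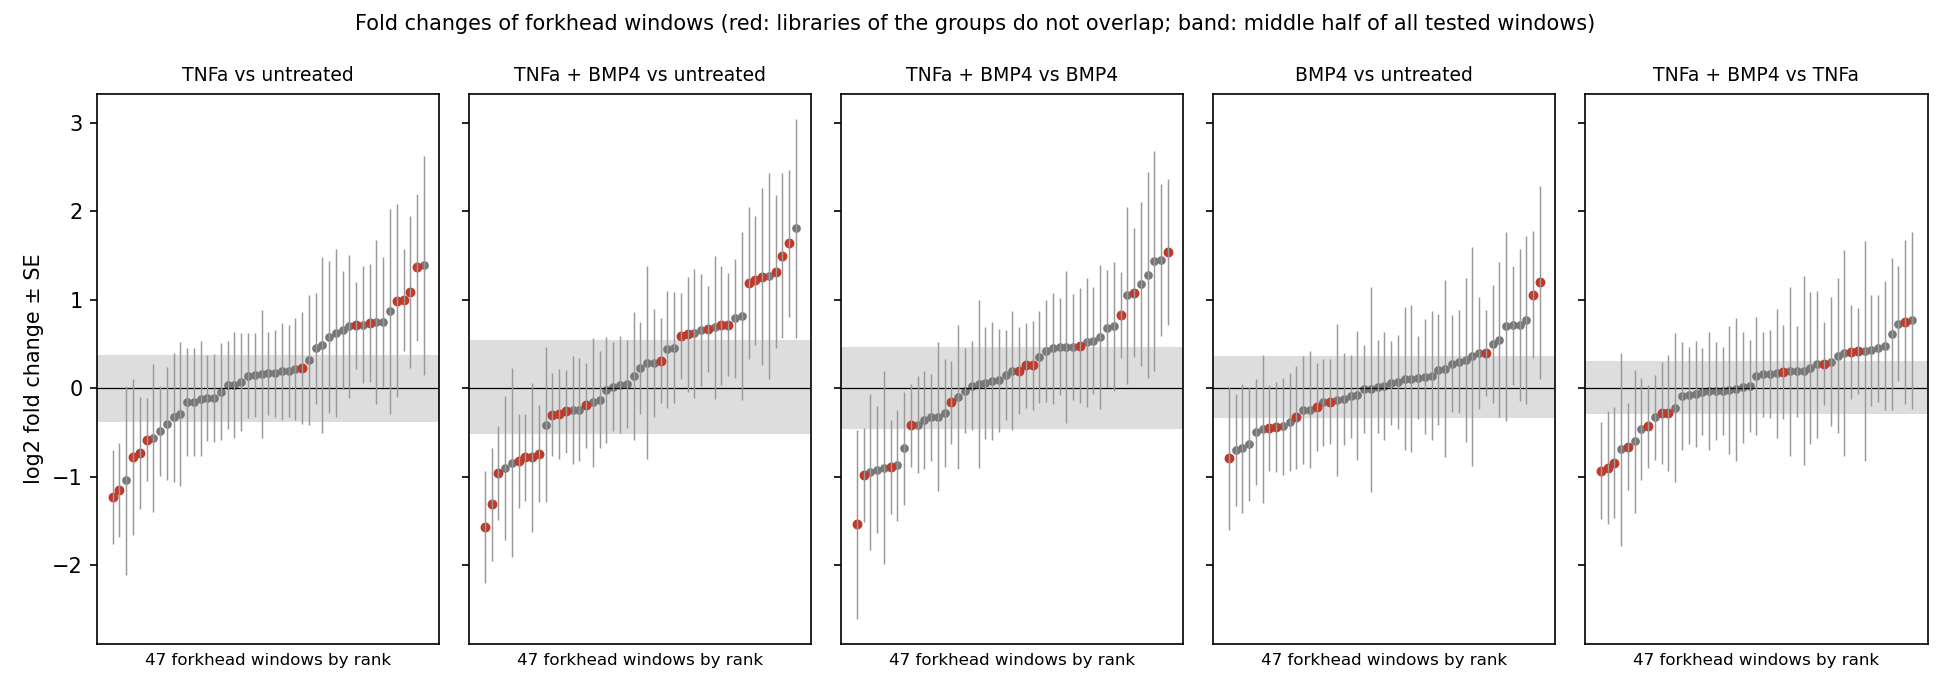
Log2 fold change with its SE (vertical axis) of the 47 forkhead windows, ranked within each of 5 comparisons, with windows whose groups do not overlap in red and the interquartile range of all tested windows as a grey band. The spread is widest for both factors against untreated cells (-1.57 to 1.81) and narrowest for both against TNFa (-0.93 to 0.77).

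Whether the response to 1 factor depended on the other was tested by the interaction term. Its forkhead median was 0.05, beside 0.02 over all windows, with 25 of 47 above 0 (52.4% of all). The largest value was at Foxk1 -33738, where TNFa libraries had 136 and 60.9, BMP4 libraries 207 and 53.4 and libraries with both 183 and 15.9, after 41.1 and 49.1 untreated. It came to -1.89 ± 1.55 (limma, adjusted p = 1), and in each treated group replicate 1 was more than 2-fold above replicate 2. Next below 0 were Foxp1 +57148 (-1.08 ± 1.02), Foxl1 +60176 (-0.58 ± 0.81) and Foxj2 -24768 (-0.54 ± 0.78). Above 0, the windows with the smallest p were Foxp1 +35591 (0.63 ± 0.73), Foxa2 -137959 (0.85 ± 1.03), Foxm1 +1959 (0.70 ± 0.87) and Foxo3 -1050 (0.60 ± 0.92). Each of these 7 was smaller than its SE or little above it. No window in all had an unadjusted p under 0.05 by limma or by voom (0.00%).

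A further 66 forkhead regions were not called in all 4 lists. For 32 of them (48.5%) a list without the region had a window within 500 bp, and what part placement had in the missing calls was not tested. Their median level was 25.5 CPM, against 48.4 for forkhead regions in all 4 lists. These values were taken for forkhead regions only, so no trait particular to the family can be read from them. Since peaks were called on pooled replicates, a list has no replicate, and absence from it means no call rather than no tags. The only region found in both TNFa lists and no other lay at the end of Foxs1 (chr2:152931595-152931720, +1551), with 58.3 and 43.0 CPM with TNFa and 42.3 and 37.4 with both. Of all regions 4.18% had this pattern, and 0.862% of forkhead regions did. The Foxs1 promoter itself (-582), named after its values were seen, was called only with both factors, at 32.4 and 15.9.

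The reverse pattern, both lists without TNFa only, held 5 forkhead regions (4.31%, against 7.36% of all). The Foxk2 promoter shown above (-57, chr11:121259868-121259992) was 1 of them, with 25.1 and 57.2 CPM untreated and 21.7 and 85.2 with BMP4. Foxk2 is the paralog of Foxk1, and no other window was assigned to it. Both lists with BMP4 only held 2 (1.72%, against 2.57% of all): an exon window of the single-exon gene Foxc2 (+667, chr8:121116776-121116900), with 50.4 and 28.0 with BMP4 and 40.9 and 30.6 with both, and a Foxp1 intron window (-61407) with 45.8 and 42.6, and 31.0 and 13.6. Foxj1, the master gene of motile cilia, had a promoter window (-530, named after its values were seen) in 3 lists but not in untreated cells. Its CPM was 51.5 and 10.8 with TNFa, 54.9 and 6.99 under BMP4, and 47.9 and 11.3 under the combination, and replicate 1 held most of it in each list. Foxk1 +29699 was called in 3 lists but not with both, and replicate 2 dominated there, with 18.4 and 142 untreated, 12 and 25.1 with TNFa and 10.3 and 178 with BMP4. The Foxl2 promoter window (-27), at the start of its antisense gene Foxl2os, was assigned to Foxl2 with both factors only, at 70.5 and 45.3. Every other list had a call within 500 bp of it, so that locus was called in all 4 lists. A later fit joined windows within 500 bp into loci, and there the locus was named after Foxl2os. Its CPM in that fit ran from 15.3 to 104, both in BMP4 libraries. Libraries with both factors, at 95.3 and 73.4, lay inside this range.

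Regions called in 1 list only numbered 9 in untreated cells (7.76%, against 7.92% of all regions), 8 with TNFa (6.90%, against 4.32%), 9 with BMP4 (7.76%, against 5.83%) and 6 with both (5.17%, against 6.26%). The strongest with TNFa were Foxl1 -2016 at 127 and 133 CPM and Foxn2 -122154 at 53.2 and 173. Within 500 bp of the first, all 4 lists called Foxl1 -2265. A second Foxn2 window, -122006, was called in the 3 lists other than TNFa, at 77.9 and 152 untreated, 109 and 96.0 with BMP4 and 83.2 and 74.7 with both. Foxl1 +198401, called with BMP4 only, had 143 and 214. Within 500 bp of it the other lists called +198556, at 122 and 300 untreated, 37.8 and 108 with TNFa and 42.3 and 66.8 with both. The 3 treated lists shared Foxj2 -9088, at 407 and 306 under TNFa, 423 and 280 under BMP4, and 438 and 341 under the combination. They also shared Foxp1 +16193, in the same order at 13.7 and 47.8, 38.9 and 216, and 19.7 and 73.6. The untreated list called both loci at shifted places within 500 bp: Foxj2 -9154 at 155 and 231, and Foxp1 +16087 at 99.7 and 131. A Foxo6 promoter window (-716) was called with TNFa (12 and 52.6) and with BMP4 (8.01 and 84.6). A Foxp1 promoter window (-143) was called in all lists but TNFa, with 36.0 and 99.7, 32.0 and 114, and 24 and 39.6, and replicate 2 was the higher in each. The TNFa list called the same promoter at -77, with 49.8 and 40.6. A Foxd2 promoter window (-125) was called in all lists but BMP4, with 43.6 and 80.7 untreated, 32.6 and 70.5 with TNFa and 40.9 and 52.1 with both. The BMP4 list called the Foxd2 promoter at a shifted place. In the fit of joined loci described below, with its own scaling, it had 59.6 and 96.3 there, beside 46.1 and 74.1 untreated. Other Foxp1 windows were called in 2 lists at low levels: -2380 untreated (16.8 and 14.7) and with TNFa (18.9 and 43.0), -35971 untreated (11.7 and 8.80) and with both (16.9 and 28.3), and -36187 with TNFa (13.7 and 22.7) and BMP4 (13.7 and 14). The windows at -35971 and -36187 lie within 500 bp of each other, so that locus had a call in all 4 lists. At Foxp1 +41537, called in all lists but the one with both, replicate 2 was again the higher, with 27.6 and 76.3, 20.6 and 40.6, and 16.0 and 66.8.

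The widest TNFa difference at a forkhead locus lay among such shifted windows. About 114 kb upstream of Foxn2 all 4 lists had a call within 500 bp, at different centres, and untreated and TNFa windows overlapped (-114154, chr17:88326488-88326612, intergenic). There untreated libraries had 163 and 205 CPM and TNFa libraries 36.0 and 44.2. With BMP4 the window 200 bp upstream (-114354) had 200 and 196, and with both factors the window between them (-114254) had 39.5 and 28.3. All 4 libraries with TNFa lay below all 4 without it, by several-fold. These windows were outside the matched set.

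They were therefore tested in a fit added after their values were seen, in which windows of any list within 500 bp were joined into a locus and each list gave its strongest window. It tested 14373 loci, 48 of them forkhead, with levels scaled within that fit. At Foxn2 -114154 the log2 difference was -2.09 ± 0.49 for TNFa against untreated, -2.45 ± 0.49 for both against BMP4 and 0.15 ± 0.49 for BMP4 against untreated. Averaged over both TNFa groups it was -2.27 ± 0.34 (limma, unadjusted p = 0.000123, adjusted p = 0.538), which did not pass. Foxl1 +198556 (chr8:121326179-121326303) had 129 and 276 CPM untreated, 40.4 and 106 with TNFa, 159 and 197 under BMP4 and 45.4 and 68.7 with the 2 factors together, an averaged difference of -1.56 ± 0.45. Its TNFa libraries also lay below all 4 others. Foxp1 +16087 had 106 and 121, 14.7 and 46.9, 43.1 and 199, and 21.2 and 75.7 (-1.59 ± 0.63), where BMP4 replicate 1 overlapped the TNFa libraries. At Foxi2 +55225 counts were low, with 12.4 and 30.3, 12.8 and 7.04, 31.7 and 36.4, and 21.2 and 8.15 (-1.06 ± 0.44), and groups overlapped. Foxj2 -9154 was higher in every treated library: 164 and 212 untreated, 435 and 300 with TNFa, 469 and 258 under BMP4 and 470 and 351 with the 2 factors together, or 1.11 ± 0.47 for both against untreated (adjusted p = 0.905). This did not hold at the matched window Foxj2 -8766 of the same locus. In the main fit it had 315 and 78.5, 529 and 93.2, 367 and 91.6, and 429 and 340 in the same order. There each single-factor group overlapped untreated cells.

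**Figure D5:**
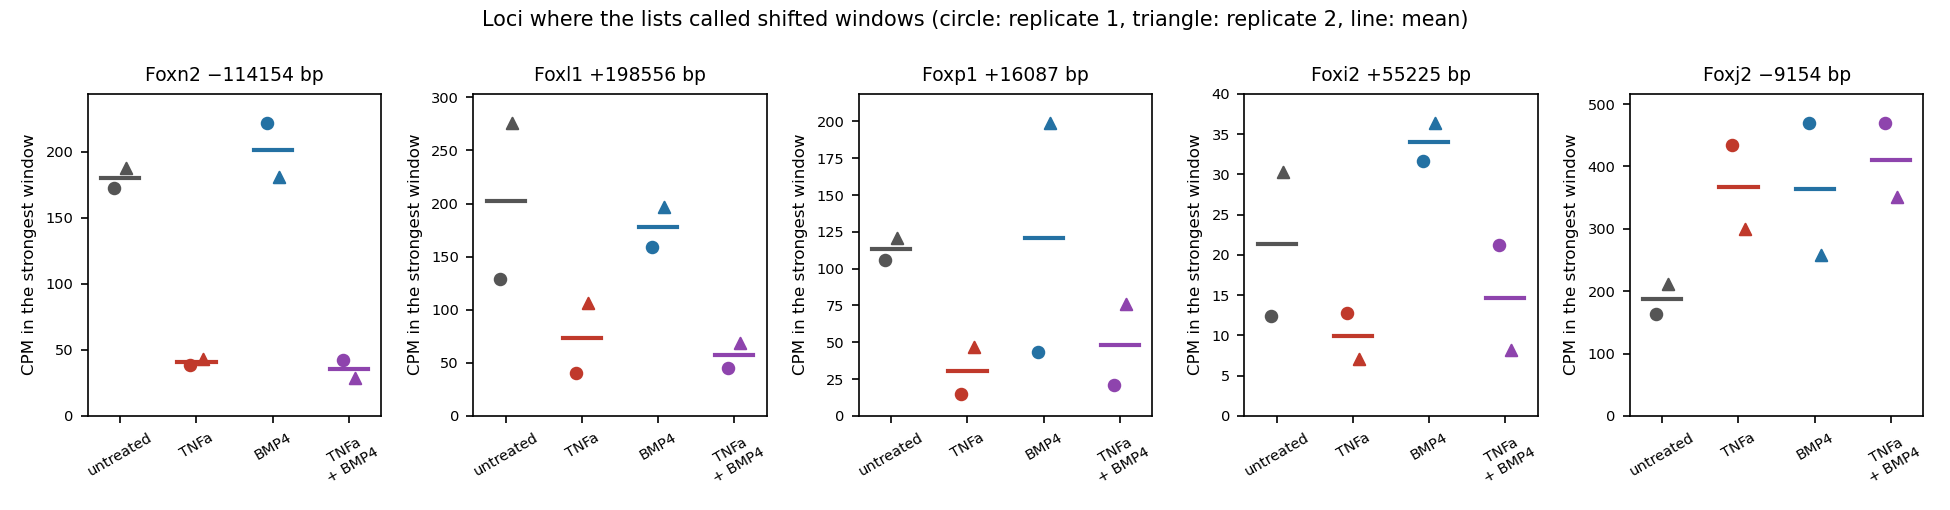
CPM (vertical axis, from 0) in the strongest window of each list at 5 forkhead loci whose lists called shifted windows, with circles for replicate 1, triangles for replicate 2 and a line for the mean. At Foxn2 -114154 the TNFa libraries sit between 29.1 and 43.4 and the others between 173 and 222.

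Of the 48 forkhead loci, 5 had all 4 TNFa libraries below all 4 others (10.4%, against 3.02% of all loci): Foxn2 -114154, Foxl1 +198556, Foxc1 -41020, Foxd3 -164214 and Foxc2 -19. Foxn1 +3765 alone had them above (2.08%, against 2.16%). At Foxc2 -19 the separation was narrow, with 22.1 CPM in replicate 2 of both factors and 23.1 in untreated replicate 1. At an unadjusted p under 0.05, 6 forkhead loci were lower (12.5%, against 3.17%) and 2 higher (4.17%, against 2.44%), and 0 of all 14373 passed after adjustment. The windows compared at a shifted locus are not the same bases, and what part placement had in these differences was not tested.

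Genes that act on forkhead factors, or that forkhead factors act on, were read from the same fit. Of 25 FOXO regulators 17 had a tested window (42 windows), of 30 FOXO target genes 24 (48 windows), and of 20 FoxM1 cell-cycle targets 15 (19 windows). None of these windows passed in any comparison, in either direction. With TNFa against untreated the medians were -0.06, -0.22 and -0.00, beside -0.00 over all windows, and 21 of 42, 19 of 48 and 9 of 19 windows were above 0. With both factors against BMP4 the medians were -0.14, -0.04 and -0.37, beside -0.00 over all windows, and 15 of 42, 22 of 48 and 4 of 19 were above 0 (49.9% of all windows). With BMP4 against untreated the medians were 0.10, 0.07 and 0.26.

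Of the single windows in these lists, 3 are given with each replicate. Sgk1 encodes a kinase that phosphorylates FOXO proteins, and Sgk1 +6343 had 62.0 and 78.5 CPM untreated, 29.2 and 31.1 with TNFa, 101 and 97.9 under BMP4 and 67.7 and 73.6 with the 2 factors together. The log2 difference was -1.16 ± 0.49 for TNFa against untreated and 1.18 ± 0.49 for both against TNFa (limma, adjusted p = 1 for each). The promoter of Bcl6, a repressor and FOXO target (-57), had 54.5 and 20.5, 42.9 and 43.0, 16.0 and 15.3, and 40.9 and 39.6. It was lowest with BMP4 alone, and both factors against BMP4 gave 1.26 ± 0.56 (adjusted p = 0.989). Cdc20, a FoxM1-linked activator of mitotic exit, had a promoter window (-147) at 22.6 and 80.7, 25.7 and 26.3, 20.6 and 82.0, and 21.1 and 15.9, where its 2 high values were replicate 2 of untreated cells and of BMP4, the 2 libraries that stood apart.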

How the data were processed

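ATAC-seq libraries of MC3T3-E1 cells (4 groups of 2, and 2 background libraries) were deposited as 4 lists of 125-bp windows on mm10. The submitters' processing notes name Trimmomatic 0.39, Bowtie2 2.5.1, Picard 2.25.1, deepTools 3.5.1 and HOMER 4.11. The sources used here do not tell if reads were shifted by the cutting offset of the transposase. The 4 value columns of each list are headed as tag counts, per the file headers, but the deposited values behave as log2 values (regularised logarithms, fitted separately in each list), and the authors' log2 fold changes and p-values in the same lists were not used. Peaks were called on pooled replicates, per the file headers, and the nearest gene is the authors' annotation.

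Because each list has its own scale, tag counts were solved back from the deposited log2 values with 3 fitted constants per list. They came out whole (within 0.1) for 99.3% to 100.0% of values, and in 319 forkhead windows for all but 1. The background counts of windows shared by 2 lists were equal in 100% of 87930 values. Windows overlapping by at least 63 bp were linked, the 14471 found once in each list were matched, and 14416 were tested, those in which 2 or more libraries reached a count equivalent of 10 and the sum reached 15. Values were scaled by trimmed mean of M-values, taken as log2 with a pseudocount of 2 and fitted with limma 3.58.1 in R 4.3.3 (trend, group only, 8 libraries, two-sided, Benjamini-Hochberg). The fit was tested on simulated counts that had no split between replicates such as that seen here, so the simulation does not cover it. 1 CPM corresponded to 0.583 to 1.57 tags.

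Named were, per comparison, the 4 tested forkhead windows with the smallest p in each direction, all tested promoter windows, for each pattern of lists up to 2 regions with the most tags, and of the other gene lists windows among the 2 smallest p. Others were chosen after their values were seen. The members and lists were chosen with earlier results of these data known. Replicate 2 minus replicate 1 differences correlated across groups (0.105 to 0.764), but no label says what a number marks, so the block was an alternative only. Alternatives changed the pseudocount, filter, scaling, matching, weights, samples and block. Window sequences were not analysed here, and promoters came from the RefSeq table, whose start sites matched the lists within 2 bp in 95.8%.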

Additional observations from a re-analysis of the deposited data

How the results depend on the processing

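No forkhead window passed in the planned comparisons under any of the 19 planned settings, where 0 windows passed in all. With the replicate block the 6 planned terms stayed at 0 windows called, and the lowest adjusted p of a forkhead window was 0.0674, in the added comparison of TNFa groups with the others, where 119 windows of other genes were called. Replicate numbers share only a number. The replicate 2 minus replicate 1 differences correlated between groups from 0.105 (untreated and both factors) to 0.764 (untreated and BMP4). Libraries did not always pair by number: untreated replicate 1 correlated at 0.903 with replicate 2 of both factors and at 0.733 with replicate 1.

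After the data were seen, the 2 libraries that stood apart (replicate 2 of untreated and of BMP4) were left out. Without the block 0 windows passed. With the replicate block on those 6 libraries, which leaves 1 residual degree of freedom, limma called 92 windows for TNFa against untreated, 805 for BMP4, 1138 for both, 75 for both against TNFa, 12 for both against BMP4, 22 for the interaction, 103 for the TNFa average and 1779 for the BMP4 average. Foxk1 -33738 was among them at 2.22 for BMP4 against untreated (adjusted p = 0.00707) and -2.91 for the interaction (adjusted p = 0.0339), and over its other alternatives its adjusted p was 0.638 to 1 for BMP4 and 1 for the interaction. It was also the forkhead window called for TNFa against untreated, at 2.19 (adjusted p = 0.0194).

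Leaving out 1 library at a time reversed 6 named differences, none of which had passed: Foxl1 +155778 for BMP4 against untreated (-0.23 to 1.67), Foxo3 -1050 for both against TNFa (-0.19 to 1.62), for the interaction (-0.31 to 1.5) and for the BMP4 average (-0.04 to 0.87), Foxj2 -8766 for both against TNFa (-0.49 to 1.98) and Foxl1 +60176 for the interaction (-1.17 to 0.03). Others kept their sign but moved toward 0. Without BMP4 replicate 1, Foxp1 -39937 went from -0.70 to -0.03 and Foxa2 -133483 from -0.63 to -0.04 for BMP4 against untreated. Foxp4 -149 went from 1.09 to 0.38 for TNFa against untreated without untreated replicate 2. It went from 1.45 to 0.27 for both against BMP4 without BMP4 replicate 2. Foxs1 +7124 ranged from 0.62 to 2.12 for TNFa against untreated and from 0.5 to 2.59 for both against BMP4. Further ranges that came near 0 included Foxk1 -34127 for BMP4 against untreated (0.06 to 1.33). For the interaction they included Foxa2 -137959 (0.03 to 1.68), Foxj2 -24768 (-1.0 to -0.06) and Foxm1 +1959 (0.09 to 1.33). The cause was not tested.

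Region counts moved with the linking rule. Regions in both TNFa lists only, 1 at 50% overlap, numbered 2 at 1 bp overlap, with lists brought to the shortest, and with windows within 500 bp joined, and 4 at 80% overlap. Regions in the untreated list only, 9 at 50%, numbered 5 at 1 bp (4.63%, against 6.76% of all), 14 at 80% (10.6%, against 10.7%) and 4 on joining (4.76%, against 6.91%). With shortest lists, both lists without TNFa held 3 (2.75%, against 6.08%) and both BMP4 lists 1 (0.917%, against 2.93%). Joining left 2 in both lists without BMP4 (2.38%, against 2.52%), 2 with TNFa only (2.38%, against 2.23%), 5 with BMP4 only (5.95%, against 3.90%) and 1 with both factors only (1.19%, against 3.70%). Over forkhead windows within 10000 bp of a start site the median CPM was 42.7 untreated, 56.1 with TNFa, 40.7 with BMP4 and 53.7 with both (37.2, 42.7, 37.8 and 40.7 over all 47), and with total-tag scaling it was 39.6 with TNFa. With 2 libraries a group, the median SE of a forkhead log2 fold change was 0.63.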
